A study of Mus musculus with 2 samples.

Results

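Immediate early genes are switched on within minutes of a stimulus without new protein synthesis, and here 10 of them were followed across the immune cells of mouse mammary tumours: Fos, Fosb, Jun, Junb, Jund, Egr1, Atf3, Ier2, Dusp1 and Zfp36. They were chosen by name, with earlier results of these data known, and are 10 of the 31053 genes in the deposited tables. Tumours were grown from the mouse cell lines PyMT-N and PyMT-M, named after the polyoma middle T oncogene, by injection into the mammary gland, and were collected 4 weeks later at a diameter of 0.7 to 1 cm. What the letters N and M stand for, the host strain and the number of animals behind each library are not given in the sources used here. Living CD45+ cells (CD45 is a surface protein of leukocytes) were isolated by sorting, and their RNA was counted from the 5′ end of transcripts as unique molecular identifiers (UMIs) in droplets. Each tumour is 1 library, so the line, the animal, the dissociation and the library cannot be told apart. No test was therefore run, and every interval is a 95% interval that covers counting error only.

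Fos and Jun proteins pair to form the transcription factor AP-1, and the members of each family differ in partner choice and strength. Egr1 is a zinc-finger transcription factor, Atf3 a stress-induced factor of the ATF/CREB family, and Ier2 a small nuclear protein. Dusp1 and Zfp36 belong to the feedback arm: Dusp1 encodes a phosphatase that switches off MAP kinases, and Zfp36 encodes tristetraprolin, which marks cytokine mRNAs for decay. In myeloid cells these genes respond to growth factors, Toll-like receptor ligands and stress, and enzymatic dissociation of tissue is also known to induce them. Ccl3 and Ccl4, the neighbouring genes of 2 inflammatory chemokines, are early targets of the same signals in macrophages.

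The control regions of 3 members are shown because they carry matches to inducible elements known from this gene class. Capitals mark a match to the serum response element core (the CArG box) in Zfp36. In Dusp1 and Fos they mark the cyclic AMP response element TGACGTCA or its core TGACGT. Each stretch runs from 250 bases before to 50 bases after the RefSeq start site, in build GRCm38.p6.
Zfp36 (chr7:28379179-28379478, minus strand): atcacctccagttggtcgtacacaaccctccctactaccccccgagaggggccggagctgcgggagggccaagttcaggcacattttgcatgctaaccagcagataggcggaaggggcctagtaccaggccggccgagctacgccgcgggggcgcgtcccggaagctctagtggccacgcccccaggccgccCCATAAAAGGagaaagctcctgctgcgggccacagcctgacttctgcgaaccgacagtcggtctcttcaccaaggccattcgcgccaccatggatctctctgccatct
Dusp1 (chr17:26508423-26508722, minus strand): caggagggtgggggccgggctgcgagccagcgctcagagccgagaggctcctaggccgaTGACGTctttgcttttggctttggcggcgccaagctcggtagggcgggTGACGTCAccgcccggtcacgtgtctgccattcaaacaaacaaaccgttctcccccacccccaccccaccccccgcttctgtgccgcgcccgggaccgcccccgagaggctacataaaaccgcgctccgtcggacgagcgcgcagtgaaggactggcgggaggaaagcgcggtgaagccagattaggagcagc
Fos (chr12:85473640-85473939, plus strand): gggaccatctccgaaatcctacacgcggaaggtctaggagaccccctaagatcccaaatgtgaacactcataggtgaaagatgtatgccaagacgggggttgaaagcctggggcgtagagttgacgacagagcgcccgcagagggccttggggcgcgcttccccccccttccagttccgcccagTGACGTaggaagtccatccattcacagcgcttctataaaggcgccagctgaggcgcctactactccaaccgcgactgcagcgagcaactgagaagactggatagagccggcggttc
Of the 10 members, 8 had a promoter in the RefSeq table, and Egr1 and Ier2 had none there. Motifs were searched on both strands. The CArG match of Zfp36 lay 58 to 49 bases before the start, and such a match was found in 1.57% of all 27025 promoters. The nearest GENCODE start of Zfp36 lies 27 bases upstream of the RefSeq start, so the match is closer to that start. A match of letters cannot tell a CArG box from another A- and T-rich promoter element, and its function was not tested. Dusp1 held the full element 143 to 136 bases before the start, which 1.88% of promoters held, and a core at 191 to 186 bases before it. Fos held 1 core at 66 to 61 bases before the start and Atf3 1 core at 8 to 3 bases before it, against 7.64% of all promoters with a core. The core lies within the full element, so the Dusp1 element is also counted as a core. Fosb, Jun, Junb and Jund held none of these motifs in the window, nor the AP-1 site TGANTCA, which was in 7.93% of promoters. Elements farther than 250 bases before the start, and sites that depart from the exact motif, were not searched for in any member. A motif not found here can therefore still be present in the gene. The RefSeq start of Jund lies 1210 bases before the start of its gene in the GENCODE annotation, so its window does not cover that start; for the other 7 a GENCODE transcript starts within 30 bases of the RefSeq start. These matches are letters in a window and were not related to the levels below.

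By the annotation of the same build, the Fos family members lie at chr12:85473890-85477273 (Fos, ENSMUSG00000021250) and chr7:19302696-19310051 (Fosb, ENSMUSG00000003545). The Jun family members lie at chr4:95049034-95052222 (Jun, ENSMUSG00000052684), chr8:84974484-84978718 (Junb, ENSMUSG00000052837) and chr8:70698949-70700616 (Jund, ENSMUSG00000071076). Egr1 (ENSMUSG00000038418) lies at chr18:34859823-34864984, Atf3 (ENSMUSG00000026628) at chr1:191170296-191218039 and Ier2 (ENSMUSG00000053560) at chr8:84661331-84662852. The feedback genes lie at chr17:26505590-26562128 (Dusp1, ENSMUSG00000024190) and chr7:28376784-28380253 (Zfp36, ENSMUSG00000044786).

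There were 5020 barcodes with 14907736 UMIs in PyMT-N and 7476 barcodes with 43977988 UMIs in PyMT-M. The libraries shared 60 barcode sequences. Cells were placed in classes by the number of distinct marker genes they carried, and are called "-like" for that reason. Of the 4994 PyMT-N and 7357 PyMT-M cells kept, 4406 and 6584 fell in a class. PyMT-N held 3289 neutrophil-like, 642 macrophage-like, 178 monocyte-like, 166 T cell-like and 63 B cell-like cells. PyMT-M held 5238 macrophage-like, 123 monocyte-like, 520 T cell-like, 441 natural killer (NK) cell-like and 114 epithelial cell-like cells, the last of them outside what a CD45 sort should keep. Classes under 50 cells in a tumour were not described there. The median neutrophil-like cell had 1717 UMIs in PyMT-N, and the median macrophage-like cell 4410.5 in PyMT-N and 4979 in PyMT-M. Levels are UMIs per 1000000 UMIs of a class (CPM), summed over its cells.

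Summed over the 10 genes, immediate early RNA was highest in the myeloid classes of both tumours. In PyMT-N it made up 24863 CPM of neutrophil-like cells (24745 to 24982), 11836 CPM of monocyte-like, 7153 CPM of macrophage-like, 7059 CPM of B cell-like and 3606 CPM of T cell-like cells. In PyMT-M it made up 18408 CPM of macrophage-like cells (18359 to 18457), 17701 CPM of monocyte-like, 5551 CPM of epithelial cell-like, 3600.4 CPM of NK cell-like and 3029 CPM of T cell-like cells. The macrophage-like and B cell-like sums of PyMT-N did not differ beyond counting error. Among the classes described, macrophage-like cells thus stood at the top of PyMT-M and in the middle of the order in PyMT-N. The 46 neutrophil-like cells of PyMT-M, too few to be described, had a higher sum of 50303.5 CPM (48704 to 51943). With 5 possible doublets put back, that sum was 34470 CPM, still above the macrophage-like one.

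**Figure D1:**
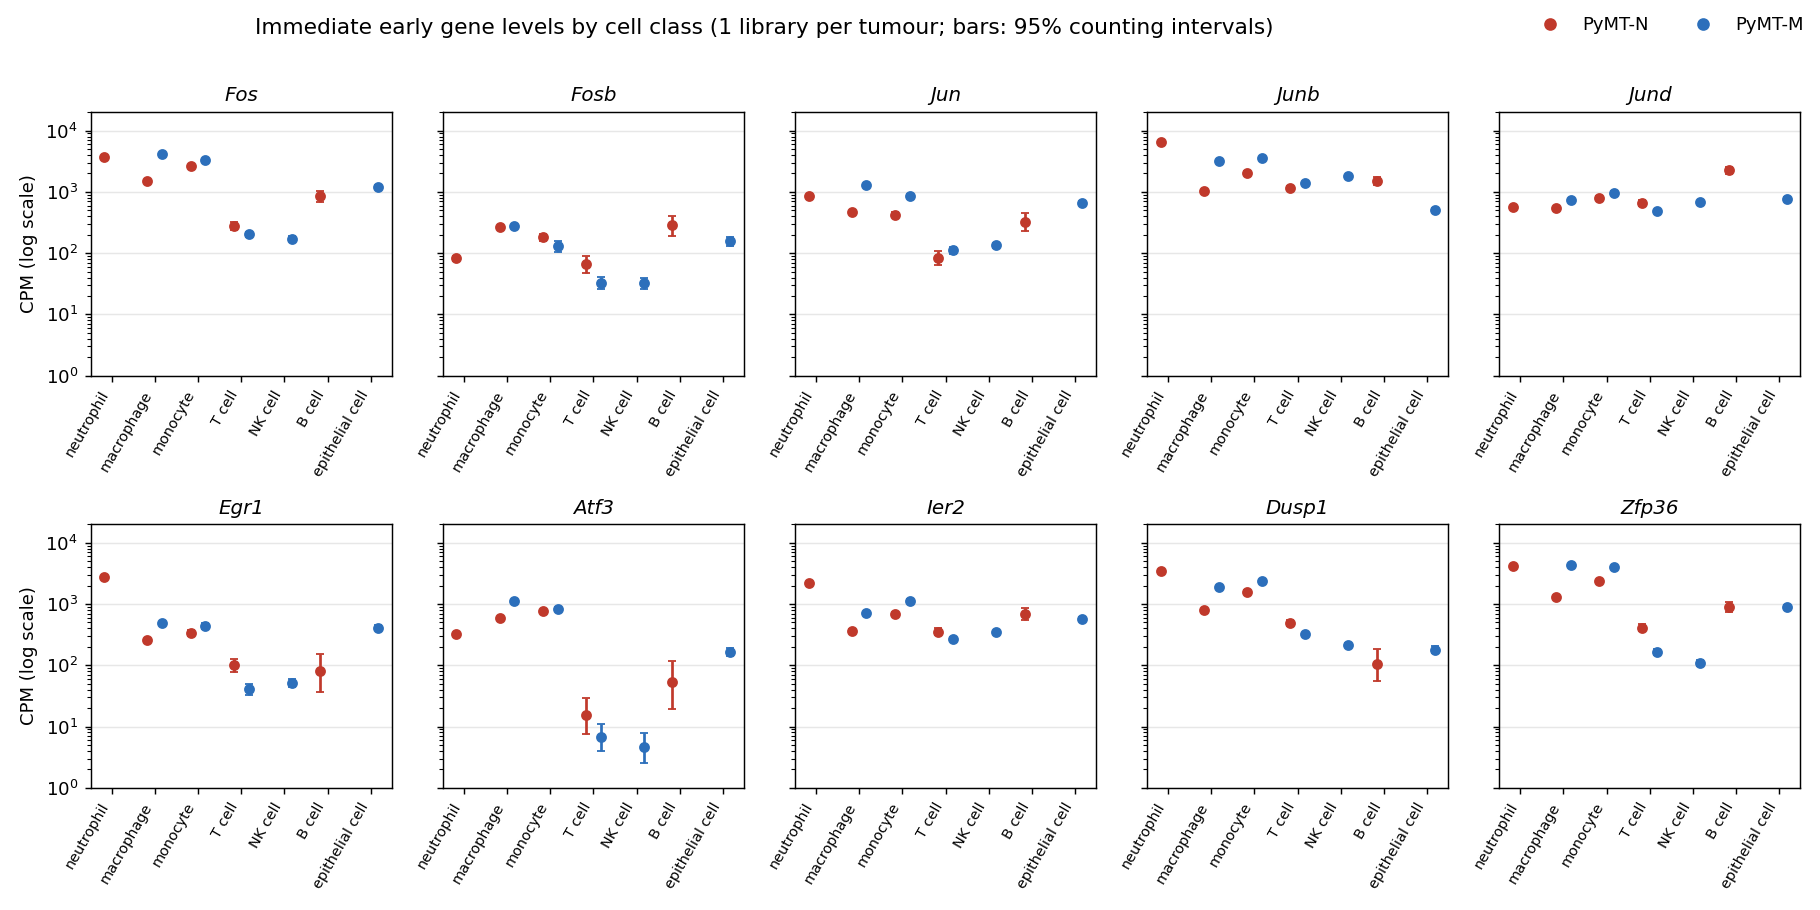
Level of each immediate early gene (CPM, log axis) in each cell class, with PyMT-N in red left of PyMT-M in blue; points are sums over all cells of a class in 1 library and bars 95% counting intervals. Myeloid classes stand highest for Fos, Zfp36, Dusp1 and Atf3, whereas Jund lies between 479 and 2253 CPM in every class.

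Fos, the AP-1 partner that cannot pair with itself, was at 3709 CPM in neutrophil-like, 2613 in monocyte-like, 1515 in macrophage-like, 860.2 in B cell-like and 279 in T cell-like cells of PyMT-N. In PyMT-M Fos was at 4219 CPM in macrophage-like, 3355 in monocyte-like, 1216 in epithelial cell-like, 203 in T cell-like and 172 in NK cell-like cells. Only the T cell-like and NK cell-like levels overlapped within their intervals. Fosb, its close relative, was at 284 CPM in B cell-like, 265 in macrophage-like, 181 in monocyte-like, 82.6 in neutrophil-like and 65.5 in T cell-like cells of PyMT-N. In PyMT-M Fosb was at 277 CPM in macrophage-like, 155 in epithelial cell-like, 129 in monocyte-like, 32.6 in T cell-like and 32.5 in NK cell-like cells. Fosb was thus low in the very class of PyMT-N where Fos was highest, and its B cell-like and macrophage-like levels there could not be separated. The neutrophil-like and T cell-like levels of PyMT-N, the epithelial cell-like and monocyte-like levels of PyMT-M and both lymphoid levels of PyMT-M also overlapped.

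Jun was at 874 CPM in neutrophil-like, 468 in macrophage-like, 427 in monocyte-like, 328 in B cell-like and 84.2 in T cell-like cells of PyMT-N. In PyMT-M Jun was at 1283 CPM in macrophage-like, 859 in monocyte-like, 672 in epithelial cell-like, 134 in NK cell-like and 111 in T cell-like cells. As for Fos, neutrophil-like cells stood highest in PyMT-N and macrophage-like cells highest among the classes described in PyMT-M. The 46 PyMT-M neutrophil-like cells, too few to be described, were higher, at 6609 CPM for Fos and 1615 CPM for Jun. For Jun, intervals overlapped between macrophage-like and monocyte-like and between monocyte-like and B cell-like cells of PyMT-N. They also overlapped between both lymphoid classes of PyMT-M. Junb, which tempers Jun activity and is used widely in leukocytes, was at 6634 CPM in neutrophil-like, 2072 in monocyte-like, 1508 in B cell-like, 1148 in T cell-like and 1041 in macrophage-like cells of PyMT-N. In PyMT-M Junb was at 3549 CPM in monocyte-like, 3258 in macrophage-like, 1853 in NK cell-like, 1406 in T cell-like and 509 in epithelial cell-like cells. Unlike Fos and Jun, Junb stayed above 1000 CPM in every lymphoid class described, and its T cell-like and macrophage-like levels in PyMT-N overlapped.

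Jund, the least inducible Jun family member, was at 2253 CPM in B cell-like, 787 in monocyte-like, 661 in T cell-like, 577 in neutrophil-like and 549 in macrophage-like cells of PyMT-N. In PyMT-M Jund was at 961 CPM in monocyte-like, 762 in epithelial cell-like, 743 in macrophage-like, 677 in NK cell-like and 479 in T cell-like cells. Jund had the flattest profile of the 10 genes in PyMT-M, where its highest class was 2.004 times its lowest. The neutrophil-like and macrophage-like levels of PyMT-N and the epithelial cell-like and macrophage-like levels of PyMT-M overlapped. Over the 10 class-by-tumour sums, the log2 level of Jund followed that of the other 9 members with a Pearson r of 0.048, whereas the values were 0.92 for Zfp36, 0.91 for Fos and 0.52 for Fosb. These sums share 2 libraries, so r is given as a description.

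Egr1 was at 2737 CPM in neutrophil-like, 333 in monocyte-like, 254 in macrophage-like, 99.8 in T cell-like and 79.8 in B cell-like cells of PyMT-N. In PyMT-M Egr1 was at 484 CPM in macrophage-like, 444 in monocyte-like, 412 in epithelial cell-like, 51.9 in NK cell-like and 40.5 in T cell-like cells. The neutrophil-like level in PyMT-N was 8.22 times that of the next class, while neighbouring classes among the top 3 of PyMT-M overlapped, as did T cell-like with B cell-like cells in PyMT-N and NK cell-like with T cell-like cells in PyMT-M. Atf3 was at 755 CPM in monocyte-like, 586 in macrophage-like, 320 in neutrophil-like, 53.2 in B cell-like and 15.6 in T cell-like cells of PyMT-N. In PyMT-M Atf3 was at 1135 CPM in macrophage-like, 841 in monocyte-like, 166 in epithelial cell-like, 6.75 in T cell-like and 4.69 in NK cell-like cells. Atf3 had the widest range of the members in both tumours, 48.4-fold and 242-fold from the highest to the lowest class, on 10 and 14 UMIs in the lowest class, which overlapped the class above it in both. Ier2 was at 2216 CPM in neutrophil-like, 690.4 in monocyte-like, 683 in B cell-like, 368 in macrophage-like and 351 in T cell-like cells of PyMT-N. In PyMT-M Ier2 was at 1137 CPM in monocyte-like, 715 in macrophage-like, 574 in epithelial cell-like, 347 in NK cell-like and 267 in T cell-like cells. In PyMT-N its monocyte-like and B cell-like levels overlapped, as did its macrophage-like and T cell-like levels.

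Dusp1 was at 3496 CPM in neutrophil-like, 1584 in monocyte-like, 787 in macrophage-like, 488 in T cell-like and 106 in B cell-like cells of PyMT-N. In PyMT-M Dusp1 was at 2343 CPM in monocyte-like, 1899.8 in macrophage-like, 319 in T cell-like, 217 in NK cell-like and 180.4 in epithelial cell-like cells. B cell-like and epithelial cell-like cells, which held Fos, were thus the lowest for this phosphatase, the epithelial cell-like level overlapping that of NK cell-like cells. Zfp36 was at 4218 CPM in neutrophil-like, 2393 in monocyte-like, 1320.3 in macrophage-like, 905 in B cell-like and 413 in T cell-like cells of PyMT-N. In PyMT-M Zfp36 was at 4394 CPM in macrophage-like, 4082 in monocyte-like, 906 in epithelial cell-like, 165 in T cell-like and 110.5 in NK cell-like cells. No neighbouring classes overlapped for Zfp36 in either tumour.

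Set against the macrophage-like cells of the same tumour, PyMT-N neutrophil-like cells had at least 2-fold more RNA per UMI of 6 members, a fold that 16.8% of 10026 genes reached in that direction. Ratios are log2 ratios with 1 CPM added to both levels, and a gene needed 20 UMIs over both groups to be counted. They were 3.43 for Egr1 (3.33 to 3.53), 2.67 for Junb, 2.59 for Ier2, 2.15 for Dusp1, 1.67 for Zfp36 and 1.29 for Fos. Fosb went the other way at -1.67 (-1.84 to -1.53), the 1 member at least 2-fold lower, against 27.6% of genes. Atf3 was at -0.87 and Jund at 0.07 (-0.01 to 0.15). The median over all genes with at least 100 UMIs was -0.04. In PyMT-M, macrophage-like against T cell-like cells had 9 of the 10 members at least 2-fold higher, against 23.3% of 12019 genes, led by Atf3 at 7.20, Zfp36 at 4.73 and Fos at 4.37, with Jund at 0.63.

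Between the tumours, macrophage-like cells of PyMT-N held less immediate early RNA than those of PyMT-M, with a log2 ratio of the sum of -1.36 (-1.38 to -1.34). The members at least 2-fold lower in PyMT-N were 5 of 10, against 8.57% of 11769 genes, and 0 were at least 2-fold higher, against 3.25%. They were Zfp36 (PyMT-N 1320.3 and PyMT-M 4394 CPM, log2 ratio -1.73), Junb (1041 and 3258 CPM, -1.64), Fos (1515 and 4219 CPM, -1.48), Jun (468 and 1283 CPM, -1.45) and Dusp1 (787 and 1899.8 CPM, -1.27). Ier2 at -0.96, Atf3 at -0.95 and Egr1 at -0.93 lay just short of 2-fold. Jund was at -0.44 (-0.51 to -0.37), and Fosb at -0.06 (-0.17 to 0.04) had levels of 265 CPM in PyMT-N against 277 CPM in PyMT-M, which overlapped within counting error. The median of all genes with at least 100 UMIs was -0.19, and on a scale set to that median Fosb stood at 0.12, higher in PyMT-N, while the other 9 members kept their sign. The chemokine genes were lower as well: Ccl3 was at 229 CPM in PyMT-N against 1010.2 CPM in PyMT-M, a log2 ratio of -2.14, and Ccl4 was at 765 CPM and 5292 CPM, a log2 ratio of -2.79.

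**Figure D2:**
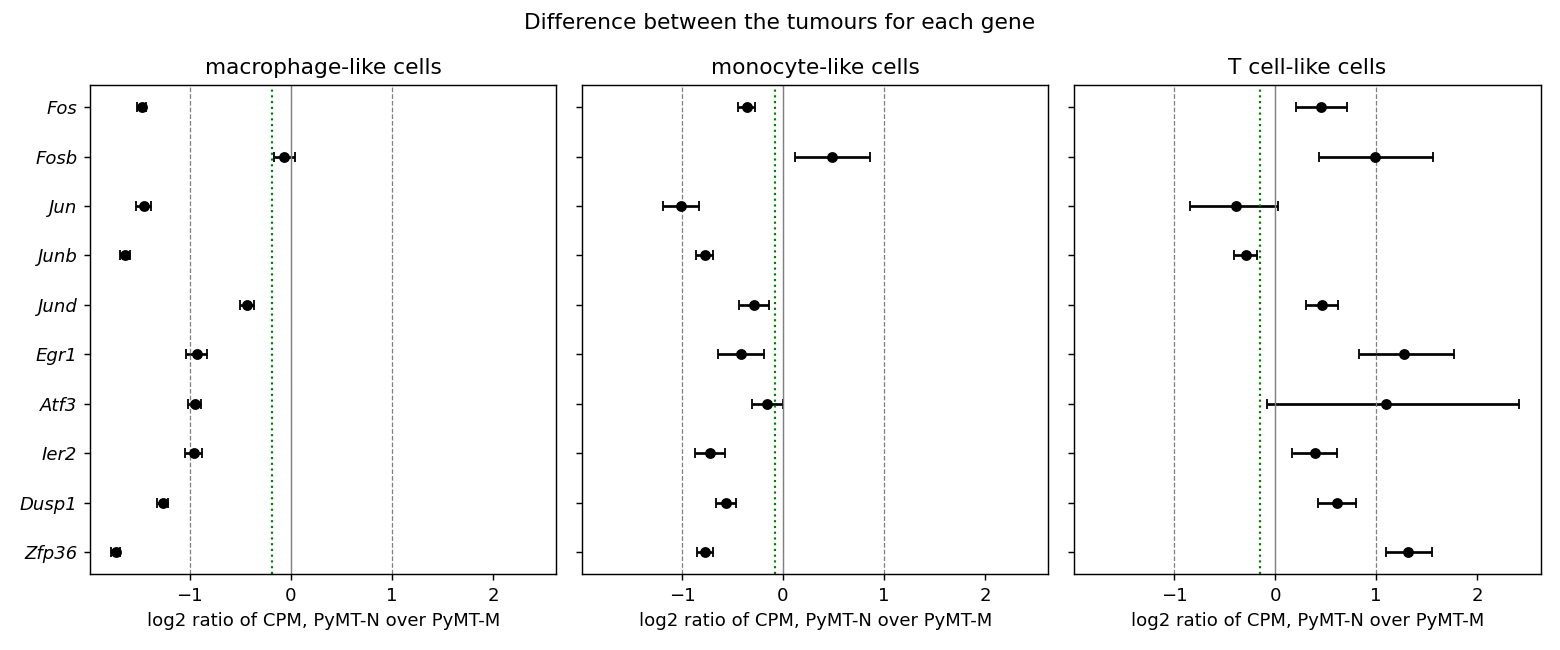
Log2 ratio of CPM, PyMT-N over PyMT-M, for each gene in 3 classes, with 1 CPM added to both levels; bars are 95% counting intervals of the ratio without it, dashed lines mark 2-fold and the green dotted line the median of all genes. In macrophage-like cells 5 genes lie beyond 2-fold lower, whereas in T cell-like cells Egr1, Atf3 and Zfp36 lie beyond 2-fold higher.

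Other features of these macrophage-like cells moved with that difference. The complement genes C1qa, C1qb and C1qc summed to 12167 CPM in PyMT-N against 27734 CPM in PyMT-M. They are among the markers by which this class was set, so their presence in it is partly fixed by the class rule. The neutrophil marker S100a8 was at 12.3 CPM in PyMT-N macrophage-like cells, or 0.0328% of its level of 37599 CPM in neutrophil-like cells, and at 2.15 CPM in PyMT-M. That share of the neutrophil-like immediate early sum would be 8.16 CPM, against the 7153 CPM measured. S100a8 is also a marker by which the classes were set. Its low level is thus partly fixed by the class rule, and the share is no independent measure of neutrophil RNA. Median mitochondrial content was 2.65% in PyMT-N and 2.27% in PyMT-M. The part of the C1q difference in the immediate early difference was not tested.

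Monocyte-like cells showed the same direction with smaller ratios, and the sum was at -0.58 (-0.62 to -0.54). Jun, at 427 CPM in PyMT-N against 859 CPM in PyMT-M, was the 1 member at least 2-fold lower, against 4.81% of 6322 genes, and 0 were at least 2-fold higher, against 3.45%. Junb (-0.78), Zfp36 (-0.77), Ier2 (-0.72), Dusp1 (-0.56), Egr1 (-0.41), Fos (-0.36) and Jund (-0.29) were lower in PyMT-N by less than 2-fold. Fosb was higher in PyMT-N, at 181 CPM against 129 CPM (log2 ratio 0.48, 0.12 to 0.86), on 187 UMIs in PyMT-N and 93 in PyMT-M. Its ratio was 0.0013 (-0.44 to 0.45) in cells without a UMI of S100a8, S100a9 or the C1q genes. Atf3 at -0.16 could not be separated from 0. With classes taken from marker UMIs in place of marker genes, the sum was at -0.30 and Atf3 at 0.19, so the monocyte-like values depend on how the class is drawn. At the minimum of the class rule stood 66 of the 178 PyMT-N and 50 of the 123 PyMT-M monocyte-like cells. The monocyte-like cells of PyMT-N also held S100a8 at 276 CPM, 68 of its 285 UMIs in 1 cell.

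T cell-like cells did not follow the myeloid classes. The sum was at 0.25 (0.18 to 0.32), with 3606 CPM in PyMT-N against 3029 CPM in PyMT-M. In PyMT-N 3 of 10 members, Egr1, Zfp36 and Atf3, reached a 2-fold higher level, against 4.3% of 8216 genes, and 0 were at least 2-fold lower, against 9.72%. Zfp36 was at 413 CPM in PyMT-N, with a UMI in 83 of 166 cells, and at 165 CPM in PyMT-M, with a UMI in 200 of 520 cells, a log2 ratio of 1.32 (1.10 to 1.55). Thinned to 1000 UMIs, 27.3% of PyMT-N and 12.6% of PyMT-M T cell-like cells had a Zfp36 UMI. Egr1 was at 99.8 CPM in PyMT-N against 40.5 CPM in PyMT-M (1.28, 0.83 to 1.77), with its 64 PyMT-N UMIs in 23 cells and at most 11 in 1 cell. Atf3 rested on 10 UMIs in PyMT-N, 8 of them in 1 cell, and 17 in PyMT-M, and its interval of -0.08 to 2.42 includes 0. Fosb at 0.99 lay just under 2-fold, Dusp1 was at 0.61, Jund at 0.46, Fos at 0.46 and Ier2 at 0.39. Junb was lower in PyMT-N at -0.29, and Jun at -0.39 (-0.84 to 0.03) could not be separated from 0. Relative to the median of all genes, -0.15, Junb still lay slightly below it (-0.41 to -0.18), whereas the interval of Jun includes that median.

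The T cell-like classes were not alike in make-up. Cd8a, a marker of cytotoxic T cells, was at 70.2 CPM in PyMT-N against 779 CPM in PyMT-M, Cd4 at 59.3 CPM against 17.5 CPM, and the cytokine gene Il17a at 357 CPM, in 19 cells, against 67.9 CPM, in 11 cells. The part of this make-up in the Zfp36 and Egr1 ratios was not tested. S100a8 stood at 6.24 CPM in PyMT-N T cell-like cells, 0.0166% of its neutrophil-like level, a share at which the neutrophil-like immediate early sum would give 4.13 CPM. Here too the share is partly fixed by the class rule, which uses S100a8. Single cells weighed on the chemokines there: 94 of the 96 Ccl4 UMIs of PyMT-N T cell-like cells lay in 1 cell.

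Within a class, cells differed widely. Cells were thinned at random to 1000 UMIs each, so that depth was equal, and cells with fewer were left out (36 of the macrophage-like cells in PyMT-N and 238 in PyMT-M). Neutrophil-like cells of PyMT-N nearly all carried immediate early RNA, with a median of 24 UMIs of the 10 genes per 1000 and a central range of 12 to 41 (10th to 90th percentile). Macrophage-like cells had a median of 5 (0 to 16) in PyMT-N and 17 (0 to 39) in PyMT-M. In PyMT-N 20.8% of macrophage-like cells had 0 such UMIs, 12.7% had 3 to 5, 23.1% had 6 to 10 and 20.3% had 11 to 20. In PyMT-M 14.1% had 0, 4.12% had 3 to 5, 9.32% had 6 to 10 and 24.4% had 11 to 20, so the bin of 3 to 5 was the least filled there. At 21 or more UMIs stood 4.46% of PyMT-N macrophage-like cells (2.96 to 6.42%, 27 of 606) and 40.2% of those of PyMT-M (38.8 to 41.6%, 2009 of 5000).

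**Figure D3:**
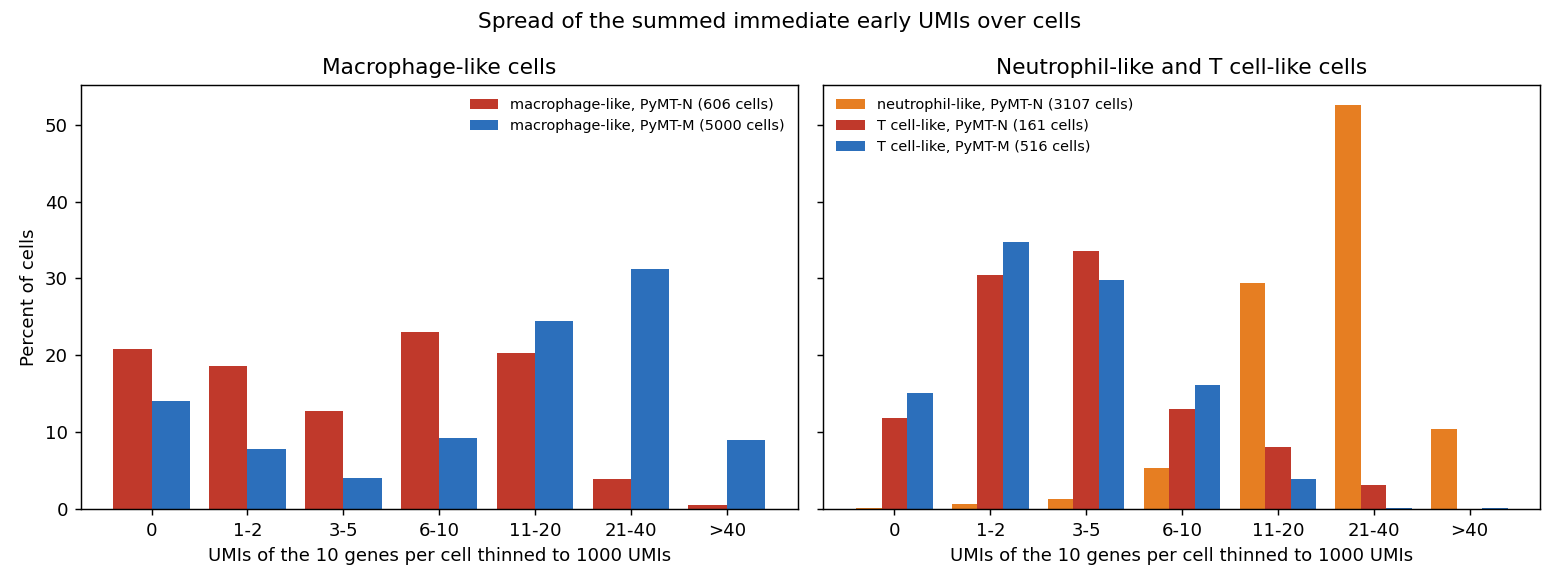
Percent of cells (vertical axis) by the number of UMIs of the 10 genes in a cell thinned to 1000 UMIs (horizontal axis, bins of unequal width). The left panel shows macrophage-like cells, with 4.46% of PyMT-N and 40.2% of PyMT-M cells at 21 or more, and the right panel neutrophil-like and T cell-like cells.

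Macrophage-like cells with 0 to 2 immediate early UMIs, 39.4% of those of PyMT-N and 22.0% of those of PyMT-M, still carried a median of 7 macrophage markers in either tumour. They were shallower before thinning in PyMT-M, with a median of 2657.5 UMIs against 5127 in cells with 21 or more, and had a higher median mitochondrial share, 3.37% against 1.71%. In PyMT-N the medians at 0 to 2 and at 21 or more, the latter only 27 cells, were 3066 and 3308 UMIs and 2.99% and 3.07%. The 340 PyMT-N cells between them, with 3 to 20, were deeper, at 5944 UMIs and 2.54%. Those of PyMT-M were at 6762 UMIs and 2.51%. The part of depth and RNA quality in this spread was not tested.

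The members varied together from cell to cell. Over macrophage-like cells thinned to 1000 UMIs, the Spearman rho was above 0 for all 45 pairs of members in both tumours, with a median of 0.29 in both. It was highest for Fos and Junb in PyMT-N, at 0.54, and for Fos and Zfp36 in PyMT-M, at 0.74. Cells of 1 library share their depth and handling, so rho is given as a description. The gene outside the list most like the summed members was Rgs1, a regulator of G protein signalling, in both tumours, with rho 0.40 over 606 cells in PyMT-N and 0.73 over 5000 cells in PyMT-M. Next came the noncoding RNA Malat1 (0.40), Il1b (0.36), Cebpb (0.36) and Btg2 (0.36) in PyMT-N, and H3f3b (0.56), Ccl4 (0.48), Il1b (0.48) and Btg2 (0.46) in PyMT-M.

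Macrophage-like cells with more Ccl3 and Ccl4 carried more immediate early RNA in both tumours. In thinned cells a UMI of either was seen in 27.4% of PyMT-N and 62.5% of PyMT-M macrophage-like cells. B cell-like cells of PyMT-N, the lowest class there, had 0 UMIs of either, which allows up to 26.6 CPM if a count of 0 is taken to allow 3 UMIs, and epithelial cell-like cells of PyMT-M had 2 UMIs, or 1.86 CPM. Cells were split by their summed Ccl3 and Ccl4 UMIs per 1000 into 0 (440 PyMT-N and 1874 PyMT-M cells), 1 to 2 (104 and 819) and 3 or more (62 and 2307). Along these bins the 10 genes summed to 5539, 8269 and 13274 CPM of the thinned UMIs in PyMT-N, and to 10119.5, 18311 and 25017 CPM in PyMT-M. The median cell had 3, 7 and 11 immediate early UMIs in PyMT-N, and 4, 16 and 23 in PyMT-M. Spearman rho between the 2 sums was 0.31 in PyMT-N and 0.50 in PyMT-M. Other features also differed along the bins. The C1q genes stood at 11730, 13212 and 16145 CPM of the thinned UMIs in PyMT-N, where the median number of macrophage markers was 7, 8 and 9, and at 28570, 28295.5 and 28609 CPM in PyMT-M, with 8, 8 and 7 markers. The median mitochondrial share was 2.64%, 2.96% and 2.60% in PyMT-N, and 2.86%, 2.31% and 1.92% in PyMT-M. The part of these features in the immediate early difference was not tested.

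**Figure D4:**
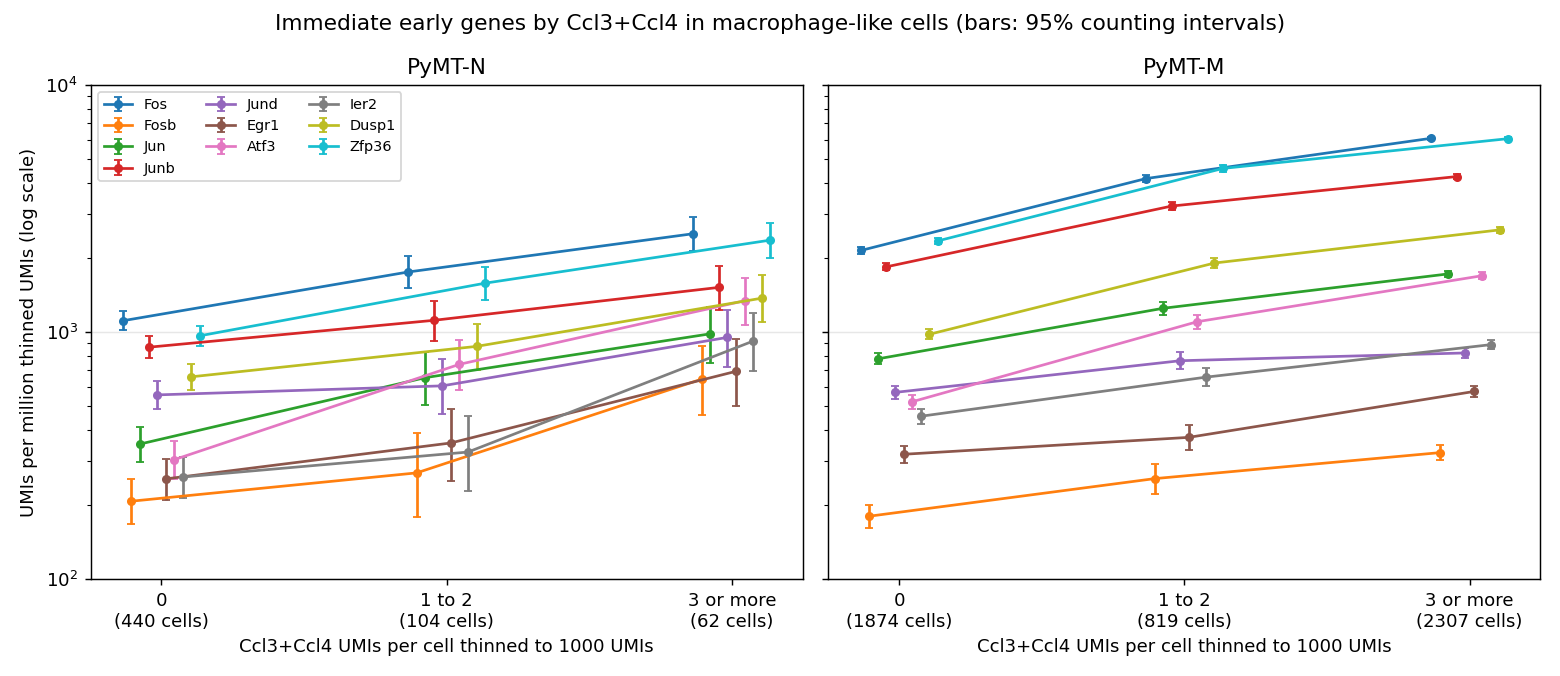
CPM of the thinned UMIs (log axis) of each immediate early gene in macrophage-like cells thinned to 1000 UMIs and binned by Ccl3+Ccl4 UMIs, PyMT-N left and PyMT-M right; bars are 95% counting intervals. All 10 genes are higher at 3 or more than at 0 in both tumours, and Atf3 has the steepest line.

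Cells with 3 or more chemokine UMIs had all 10 members higher than cells with 0. In PyMT-N 8 of 10 were at least 2-fold higher, against 7.68% of 2904 genes, and in PyMT-M 6 of 10, against 5.21% of 8956 genes. In the other direction 0 members were at least 2-fold lower in either tumour, against 11.5% of genes in PyMT-N and 2.41% in PyMT-M. Atf3 showed the largest ratio in either tumour, with 1339 CPM at 3 or more and 305 at 0 in PyMT-N (log2 ratio 2.13, 1.72 to 2.54), and 1691 and 522 in PyMT-M (1.69, 1.59 to 1.80). In PyMT-N it was followed by Ier2 (1.82), Fosb (1.64), Jun (1.48), Egr1 (1.44), Zfp36 (1.28), Fos (1.17) and Dusp1 (1.06), with Junb (0.80) and Jund (0.77) under 2-fold. In PyMT-M the order was Fos (1.51), Dusp1 (1.40), Zfp36 (1.37), Junb (1.21) and Jun (1.14), with Ier2 (0.96), Fosb (0.85), Egr1 (0.84) and Jund (0.53) under 2-fold. Jund thus had the smallest ratio in both tumours. Already in cells with 1 to 2 chemokine UMIs the sum was higher than in cells with 0, by 0.58 in PyMT-N and 0.86 in PyMT-M on the log2 scale. Atf3 was the 1 member at least 2-fold higher at that step in either tumour, at 1.28 in PyMT-N, against 4.05% of 3090 genes, and 1.07 in PyMT-M, against 2.17% of 7959. At the same step 0 members were at least 2-fold lower, against 7.15% of genes in PyMT-N and 1.7% in PyMT-M. Before thinning the cells at 3 or more were deeper than those at 0, with medians of 5401 and 4343.5 UMIs in PyMT-N and 5468 and 4383 in PyMT-M. Without thinning the ratio of the sum was 0.58 in PyMT-N, against 1.26 with it, so its size there depends on how depth is handled. In PyMT-M the values were 1.196 without and 1.31 with thinning. Member by member, the PyMT-N ratios without thinning were 1.54 for Atf3, 0.92 for Jun, 0.69 for Fos, 0.63 for Fosb and 0.61 for Zfp36. They were 0.38 for Dusp1, 0.32 for Junb and 0.30 for Ier2, the last at 0.81 thinned to 2000 UMIs. Egr1 at 0.17 (-0.05 to 0.38) and Jund at 0.08 (-0.06 to 0.23) could not be separated from 0. The count of 8 members in PyMT-N thus also depends on how depth is handled.

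The tumours still differed among cells of the same chemokine bin. The top bin has no upper bound. In it Ccl4 was at 5290 CPM of the thinned UMIs in PyMT-N against 11454 CPM in PyMT-M, and Ccl3 at 1710 CPM and 2122 CPM. The chemokine level was thus not equal within that bin, nor after the reweighting given below. The bin of 0 was not free of chemokine RNA either, since it was set after thinning. Before thinning, 42.5% of PyMT-N and 73.1% of PyMT-M macrophage-like cells had a Ccl3 or Ccl4 UMI, against 27.4% and 62.5% after it. Among cells with 0 Ccl3 and Ccl4 UMIs the sum was at 5539 CPM in PyMT-N against 10119.5 CPM in PyMT-M, a log2 ratio of -0.87 (-0.93 to -0.81). Zfp36 (-1.27), Jun (-1.14) and Junb (-1.08) were at least 2-fold lower in PyMT-N, 3 members, against 13.2% of 7500 genes, and 0 were at least 2-fold higher, against 4.17%. Among cells with 1 to 2 the ratio of the sum was -1.15, with 5 members at least 2-fold lower, against 21.8% of 5101 genes, and 0 higher, against 6.08%. Among cells with 3 or more it was -0.91, with 3 members at least 2-fold lower, against 32% of 7891 genes, and 0 higher, against 10.3%. The 3 were Junb (-1.49), Zfp36 (-1.36) and Fos (-1.28), a share near that of all genes. With the PyMT-N cells reweighted to the PyMT-M mix of bins, the ratio of the sum was -0.94, against -1.43 with their own mix. By member, the reweighted ratio was -1.40 for Junb, -1.37 for Zfp36 and -1.21 for Fos. It was 0.06 for Jund, 0.08 for Egr1 and 0.69 for Fosb. The Fosb value rests largely on the 40 UMIs of the 62 PyMT-N cells at 3 or more, where Fosb was at 645 CPM in PyMT-N against 325 CPM in PyMT-M.

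Other early genes moved less uniformly than the members between the tumours. In macrophage-like cells 7 of 36 measured genes of a list of further early response genes were at least 2-fold lower in PyMT-N, against 8.57% of all genes, and 1 was higher, against 3.25%. The list had a median of -0.50, against -0.18 over all genes with at least 20 UMIs and -1.11 over the 10 members. Rgs1 was at 1465 CPM in PyMT-N against 4406 CPM in PyMT-M (-1.59), and Socs3, an inhibitor of cytokine signalling, at 219 CPM and 1099.5 CPM (-2.32). Cebpb, a myeloid transcription factor, was at 865 CPM and 856 CPM (0.01), and Nr4a3, an orphan nuclear receptor, had 2 UMIs in PyMT-N and 154 in PyMT-M (-1.95, counting interval -6.16 to -1.23). Early targets of NF-kB had 8 of 18 at least 2-fold lower in PyMT-N, against 8.57% of all genes, and 0 higher, against 3.25%, with a median of -0.90. Among them Tnf was at 35.2 CPM in PyMT-N against 207 CPM in PyMT-M (-2.52), Nfkbiz, a nuclear IkB protein, at 95.1 CPM and 319 CPM (-1.73), and the cytokine gene Il1b at 642 CPM and 1368 CPM (-1.09). Cxcl2, a neutrophil chemoattractant, was higher in PyMT-N, at 455 CPM against 282 CPM (0.69).

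Heat-shock and dissociation genes, which mark stress of handling or culture, were split in direction between the macrophage-like cells of the tumours. In PyMT-N 4 of 15 reached a 2-fold higher level, against 3.25% of all genes, and 0 a 2-fold lower one, against 8.57%, with 7 below 0 and a median of 0.00035. The inducible chaperone gene Hspa1a was at 83.7 CPM in PyMT-N against 13.7 CPM in PyMT-M (2.52), and Hspa1b at 26.5 CPM and 1.18 CPM (3.66). Among the more abundant genes of the list, the ubiquitin gene Ubb was at 1248 CPM and 2054 CPM (-0.72) and the chaperone gene Hspa8 at 1139 CPM and 1309 CPM (-0.20). In PyMT-N the list had 4 of 11 genes at least 2-fold higher in cells with 3 or more chemokine UMIs than in cells with 0, against 7.68% of all genes, and in PyMT-M 0 of 13, against 5.21%. Within each tumour the heat-shock sum also went with the members: in macrophage-like cells with 0 to 2, 3 to 20 and 21 or more immediate early UMIs it was 4841, 5459 and 7037 CPM of the thinned UMIs in PyMT-N, and 5601, 6232 and 7390 CPM in PyMT-M. In monocyte-like cells 10 of the 12 measured genes were below 0, in the direction of the members, with a median of -0.30 against -0.10 over all genes; 1 was at least 2-fold higher in PyMT-N, against 3.45% of all genes, and 0 lower, against 4.81%. In T cell-like cells 2 of 14 were at least 2-fold higher, against 4.3%, and 1 lower, against 9.72%, with a median of 0.08. The part of such stress in the immediate early levels was not tested. In T cell-like cells 30 Hspa1a UMIs of PyMT-N lay in 4 cells, 22 of them in 1 cell, against 1 UMI in PyMT-M.

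In monocyte-like cells the early response list had 5 of 32 genes at least 2-fold lower and 1 higher in PyMT-N, and the NF-kB list 3 of 18 lower and 0 higher, against 4.81% of all genes lower and 3.45% higher. Socs3 was at 411 CPM in PyMT-N against 1289.6 CPM in PyMT-M there (-1.65), and the NF-kB inhibitor gene Nfkbia at 376 CPM and 757 CPM (-1.01). In T cell-like cells the early response list had 5 of 33 genes at least 2-fold lower and 1 higher, and the NF-kB list 0 of 17 lower and 3 higher, against 9.72% of all genes lower and 4.3% higher. The lower early response genes were thus not far above the share of all genes. Nr4a2, an orphan nuclear receptor induced by T cell receptor signals, was at 17.2 CPM in PyMT-N against 75.8 CPM in PyMT-M. Its log2 ratio of -2.08 (-3.17 to -1.27) was opposite to those of Egr1 and Zfp36. It rested on 11 UMIs in 7 cells of PyMT-N and 191 UMIs in 107 cells of PyMT-M. The part of the T cell-like make-up in it was not tested. Cxcl2 and Il1b were among the higher genes, but 20 of 36 Cxcl2 UMIs and 22 of 27 Il1b UMIs of PyMT-N lay in 1 cell each.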

How the data were processed

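Raw UMI counts per gene and barcode were deposited by the authors for 1 library per tumour, prepared, per the labels' protocols, with the 5′ kit of 10x Genomics. Per the file headers, the software that wrote them was version 3.1.0. The submitters' processing notes name Cell Ranger, Seurat and build mm10 without versions. A deposited barcode had at least 500 UMIs in PyMT-N and 501 in PyMT-M. Cell types were rebuilt from markers.

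Barcodes with fewer than 200 genes or over 10% mitochondrial UMIs were dropped (26 in PyMT-N and 119 in PyMT-M). A cell joined the class of which it carried the most distinct marker genes, given at least 3 and a lead of 2 over any other class. Cells with 4 or more markers of a second class were left out as possible doublets (91 in PyMT-N and 208 in PyMT-M), except between macrophage and monocyte and between T and NK cells. This scoring was set after marker counts had been seen. The automatic threshold of Scrublet marked 0 cells in either library, so it was used only as an alternative that removed the 201 and 440 highest scores, at 0.8% per 1000 barcodes. At the minimum of 3 markers or of the lead stood 50 PyMT-N and 89 PyMT-M macrophage-like cells, and 69 and 102 more missed the class by 1 marker or by 1 in the lead. For monocyte-like cells, 66 in PyMT-N and 50 in PyMT-M stood at the minimum, and 85 and 75 more missed the class in this way.

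UMIs were summed per class and tumour. Levels have exact Poisson, ratios exact conditional binomial and shares exact Clopper-Pearson 95% intervals. UMIs of 1 cell are not independent, so these intervals are too narrow for differences between cells or animals. Single-cell measures used cells thinned without replacement to 1000 UMIs. The ratio between the tumours and its interval were tested on simulated counts for macrophage-like, monocyte-like and T cell-like cells. Thinning was checked to return the set depth. The other statistics were not tested on simulated counts. The members and the lists were chosen with earlier results of these data known. All 10 members are named; of each other list, examples are the 2 genes with the highest CPM and the 2 with the largest ratio, and genes most like the members are the 5 with the highest correlation, among genes seen in 5% of cells. The genes most like the members over class sums are not reported here. Other genes given were chosen after their values were seen. Promoters came from RefSeq (GRCm38.p6) and positions from GENCODE. Alternatives changed the barcode filter, the class rule, doublet handling, scaling, pseudocount, minimum UMIs, thinning depth and chemokine bins. Computations ran in Python 3.11.15 (scipy 1.17.1, numpy 2.4.6, scanpy 1.11.5, pandas 2.3.3, matplotlib 3.10.9).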

Additional observations from a re-analysis of the deposited data

Results flagged for a closer look

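Zfp36 differed between the tumours in opposite directions in 2 classes. In T cell-like cells its log2 ratio of PyMT-N over PyMT-M was 1.32, and in macrophage-like cells -1.73, a gap of 3.05. The 95% counting intervals of the 2 ratios do not overlap, but with 1 library per tumour the difference between the classes was not tested.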

How the results depend on the processing

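With 1 library per tumour, no alternative can show how animals or dissociations vary, and none left out a replicate. No paired analysis was possible because each tumour has 1 library. The 5 members counted at least 2-fold lower in PyMT-N macrophage-like cells stayed 5 under every alternative tried, and the 3 counted higher in T cell-like cells varied from 2 to 4. No summed ratio changed sign. Of 540 values of single members, 3 changed sign: Atf3 in monocyte-like cells with classes from marker UMIs (0.19), and Fosb in macrophage-like cells with scaling by the median ratio (0.12) or totals without mitochondrial and ribosomal protein genes (0.14).

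The summed log2 ratio of PyMT-N over PyMT-M in macrophage-like cells (-1.36) became -1.31 with no cell left out for second-class markers, -1.39 under a stricter class rule, -1.30 with classes from marker UMIs, -1.18 with scaling by the median ratio, -1.16 without mitochondrial and ribosomal genes and -1.34 in cells without S100a8 or S100a9 UMIs, an alternative chosen after seeing the data. In monocyte-like cells (-0.58) it became -0.69 under the stricter rule, -0.30 by marker UMIs, -0.50 by median scaling, -0.51 without mitochondrial and ribosomal genes and -0.65 in cells without neutrophil or C1q UMIs. In T cell-like cells (0.25) it became 0.40 by median scaling and 0.37 without mitochondrial and ribosomal genes. Neutrophil-like over macrophage-like cells in PyMT-N (1.80) became 1.75 with no cell left out, 1.85 under the stricter rule, 1.73 by marker UMIs, 1.503 without mitochondrial and ribosomal genes and 1.78 without cells carrying other classes' marker UMIs.

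For cells with 3 or more against 0 chemokine UMIs, PyMT-N (1.26) gave 1.14 by marker UMIs, 1.04 thinned to 2000 UMIs, 0.58 without thinning and 1.66 with the upper bin from 10 UMIs. PyMT-M (1.31) gave 1.35 with the highest Scrublet scores removed, 1.23 thinned to 2000, 1.196 without thinning, 1.35 and 1.45 with the upper bin from 5 and 10 UMIs, 0.95 by Ccl3 alone and 1.16 by Ccl4 alone. PyMT-N over PyMT-M at 0 chemokine UMIs (-0.87) gave -0.96 under the stricter rule, -0.79 by marker UMIs, -0.63 without thinning, -1.23 by Ccl3 alone and -0.96 by Ccl4 alone. The causes of these shifts were not tested.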

Other observations

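PyMT-M held 46 neutrophil-like cells, under the minimum of 50 for a description. The immediate early sum was 24863 CPM in PyMT-N neutrophil-like cells, against 50303.5 CPM (48704 to 51943) in these 46, on 3737 UMIs, a log2 ratio of PyMT-N over PyMT-M of -1.02. All 10 members were lower in PyMT-N, 4 of them at least 2-fold, against 13.9% of 8550 genes: Fosb (-1.89), Jund (-1.41), Dusp1 (-1.32) and Zfp36 (-1.18). Of 13 measured heat-shock and dissociation genes, 8 were below 0, with a median of -0.61 against 0.27 over all genes. With the 5 cells left out for second-class markers put back, the 51 PyMT-M cells had a sum of 34470 CPM and a ratio of -0.49, with Fosb as the 1 member at least 2-fold lower, against 16.6% of 8751 genes. Those 5 cells held 43.5% of the UMIs of the 51, and the C1q genes were at 135 CPM without them and 5565 CPM with them.

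Cells that fell in no class, 588 in PyMT-N and 773 in PyMT-M, had immediate early sums of 11090 CPM (10961 to 11219) in PyMT-N and 11184 CPM (11101 to 11268) in PyMT-M, and median depths of 3471 and 7142 UMIs.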
